A study of Mus musculus with 18 samples.

Results

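The genes described are 10 genes of brain blood vessels in the hippocampal RNA of 18 mice: *Cldn5*, *Cdh5*, *Pecam1*, *Flt1*, *Kdr*, *Tek*, *Slc2a1*, *Slco1a4*, *Ly6c1* and *Itm2a*. They were taken by name, all 10 were found among the 15329 genes listed, and all 10 were tested. The groups were WT mice and *Ccny* knockout (KO) mice, all C57BL/6J and 8 to 10 weeks old, with 3 mice in each of 6 groups: untrained (WT_Basal, KO_Basal), trained by original learning in a Morris water maze (WT_OL, KO_OL), and trained first by original and then by reversal learning, in which the hidden platform was moved to the opposite quadrant (WT_RL, KO_RL). The maze is a swimming pool in which a mouse learns the place of a submerged platform, and *Ccny* encodes cyclin Y, a postsynaptic protein in neurons. The study asked how gene expression in the hippocampus differs with these learning tasks and with the loss of *Ccny*. How the KO allele was made and how long after the last swim the tissue was taken are not given in the sources used here, and the groups that swam differ from Basal mice in swimming, handling and time as well as in learning. Training and these factors cannot be told apart.

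Brain capillaries are lined by endothelial cells that are sealed to each other by tight junctions and carry nutrients, hormones and drugs across by dedicated transporters. Together these features form the blood-brain barrier. *Cldn5* encodes claudin-5, the main tight junction strand protein of these cells, *Cdh5* encodes VE-cadherin of their adherens junctions, and *Pecam1* encodes the adhesion molecule CD31. *Flt1* and *Kdr* encode the VEGF receptors VEGFR1 and VEGFR2, and *Tek* encodes TIE2, the receptor of the angiopoietins. *Slc2a1* encodes the glucose transporter GLUT1, which astrocytes also make, and *Slco1a4* encodes the organic anion transporter OATP1A4. *Ly6c1* encodes a surface protein held by a lipid anchor, and *Itm2a* a single-pass membrane protein, and both are widely used as markers of brain endothelium.

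Values are CPM, read counts scaled to a common library size, recovered from the deposited log2(CPM + 1) values, and differences are between group means of log2(CPM + 1), with the standard error of the fit. A gene was called when its limma p-value, adjusted by the Benjamini-Hochberg method over all 15329 genes, was under 0.05. Libraries held 29248557 to 37915576 reads on the listed genes, and a member had between 361 reads (*Cdh5*) and 5700 reads (*Slc2a1*) in a library. Counting noise was not set against the differences between mice for single members. *Ccny* itself lay between 107 and 158 CPM in the 9 WT libraries and between 74.0 and 95.8 CPM in the 9 KO libraries, with no overlap. The summed level of 15 genes of choroid plexus epithelium, a tissue next to the hippocampus, ranged from 51.7 to 8791 CPM across libraries, and 4 libraries stood farther than 0.30 (log2, root mean square over genes) from the mean of the others in their group: WT_OL replicates 2 and 3 and WT_RL replicates 1 and 3. In bulk tissue, fewer endothelial cells and less RNA per endothelial cell cannot be told apart.

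Training went with opposite changes inside the group. In the mean of both genotypes, RL mice had less *Itm2a* (log2 difference -0.87 ± 0.08), less *Slco1a4* (-0.61 ± 0.07) and less *Tek* (-0.21 ± 0.07) than Basal mice, and more *Slc2a1* (0.67 ± 0.08) and *Flt1* (0.20 ± 0.06). Adjusted p-values (limma) were 1.63e-06 for *Itm2a*, 1.63e-05 for *Slco1a4*, 0.0240 for *Tek*, 1.10e-05 for *Slc2a1* and 0.0166 for *Flt1*. This is 5 of 10 members, where 35.4% of all genes were called, and the median of the 10 differences was 0.01 against 0.0012 over all genes. After OL, 2 members rose (*Slc2a1* and *Flt1*) and 3 fell (*Itm2a*, *Cldn5* and *Slco1a4*), again 5 of 10, where 28.6% of all genes were called, with a median difference of -0.02 against -0.0028. *Cdh5*, *Pecam1*, *Kdr* and *Ly6c1* passed the test in neither comparison. The RL and OL comparisons share the 6 Basal libraries.

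**Figure D1:**
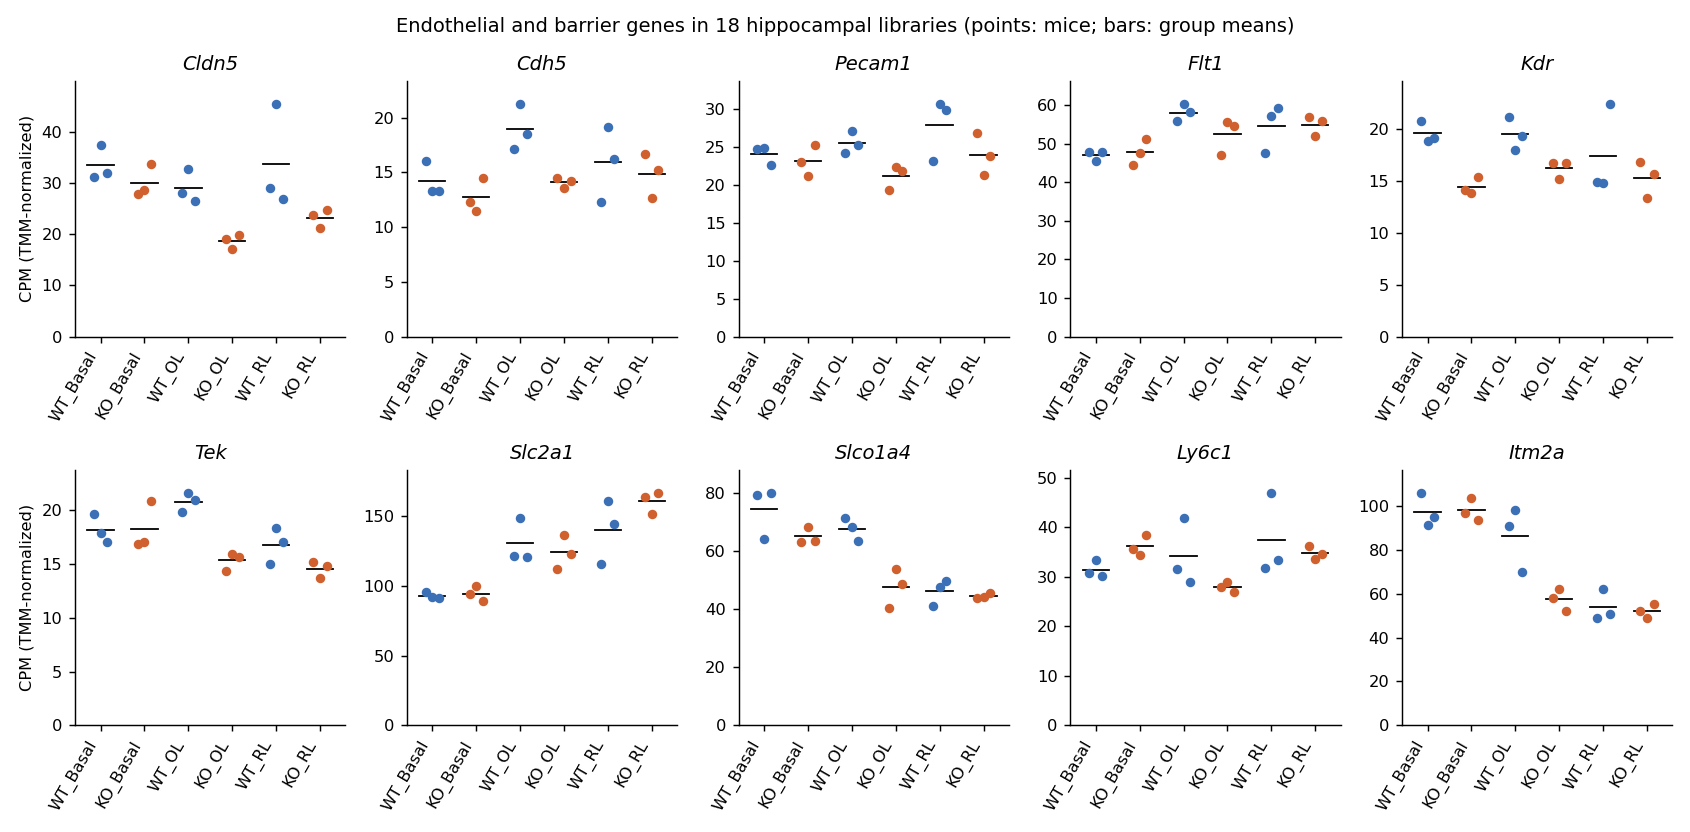
CPM of each of the 10 genes (vertical axes, from 0) in the 18 libraries, by group; points are mice (WT blue, KO orange) and black bars are the means of 3 mice. *Itm2a* fell from 91.5 to 106 CPM in Basal mice to 48.8 to 62.0 CPM in RL mice, and *Slc2a1* rose from 89.4 to 99.9 CPM to 115 to 167 CPM.

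The promoters of *Itm2a*, *Slco1a4* and *Slc2a1* are printed because these genes had the largest differences after RL, in opposite directions. Each is the RefSeq window on GRCm38.p6 from 250 bases before to 50 bases after the start of transcription, 300 bases in all, 5′ to 3′ on the strand of the gene. Capitals mark the letters AGGAAG or CGGAAG on either strand (CTTCCT or CTTCCG when read on the other one), a core that ETS factors such as ERG bind.
Itm2a, chrX:107403311-107403610, minus strand: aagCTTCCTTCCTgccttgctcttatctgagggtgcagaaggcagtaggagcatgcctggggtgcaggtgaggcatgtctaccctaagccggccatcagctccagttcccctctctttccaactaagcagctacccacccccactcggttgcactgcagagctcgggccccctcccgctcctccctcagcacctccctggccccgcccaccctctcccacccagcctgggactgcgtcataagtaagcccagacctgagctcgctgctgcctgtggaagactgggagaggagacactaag
Slco1a4, chr6:141856171-141856470, minus strand: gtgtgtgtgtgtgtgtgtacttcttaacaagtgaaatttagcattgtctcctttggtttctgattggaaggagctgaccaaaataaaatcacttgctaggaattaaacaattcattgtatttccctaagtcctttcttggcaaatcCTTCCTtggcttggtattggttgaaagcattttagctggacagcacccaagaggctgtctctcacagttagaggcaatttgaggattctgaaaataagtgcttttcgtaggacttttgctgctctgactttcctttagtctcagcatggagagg
Slc2a1, chr4:119108495-119108794, plus strand: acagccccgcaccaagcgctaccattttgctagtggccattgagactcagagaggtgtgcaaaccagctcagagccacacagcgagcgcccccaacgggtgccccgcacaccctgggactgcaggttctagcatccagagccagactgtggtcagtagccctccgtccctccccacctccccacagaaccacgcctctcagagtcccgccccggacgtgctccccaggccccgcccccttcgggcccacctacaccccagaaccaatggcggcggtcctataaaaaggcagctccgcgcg
The *Itm2a* window held 2 matches, which overlap each other and begin at positions -247 and -243 relative to the start site. The *Slco1a4* window held 1 match, 104 bases before the start, and the *Slc2a1* window held 0. Such a match is present in 46.5% of the 32817 RefSeq promoters of this length. The *Slc2a1* window held instead ACGTG (1 match, in 19.6% of promoters, the core bound by hypoxia-inducible factors), GGGCGG (2 matches on the other strand, in 35.6%) and TATAAA (1 match, in 13.6%). The *Itm2a* window also held 1 GGGCGG match and no ACGTG or TATAAA, and the *Slco1a4* window held none of these 3. The GC content of the windows was 62.0% for *Itm2a*, 40.7% for *Slco1a4* and 65.3% for *Slc2a1*. A match describes letters only.

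Levels between genes were compared per kilobase of the longest transcript. In WT_Basal, *Itm2a* was the highest at 55.9 ± 4.3 CPM per kb (SD, n = 3), then *Ly6c1* at 37.3 ± 2.0, *Slc2a1* at 28.5 ± 0.69, *Cldn5* at 23.6 ± 2.4 and *Slco1a4* at 19.5 ± 2.4. The libraries of these 5 did not overlap between neighbours in this order. A gap followed to *Pecam1* (7.01 ± 0.36) and *Flt1* (6.82 ± 0.20), which overlapped each other, and to *Tek* (3.91 ± 0.28), *Cdh5* (3.56 ± 0.39) and *Kdr* (3.3 ± 0.17), where each overlapped the next.

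*Itm2a* lies on chromosome X (107397099 to 107403376, minus strand, GRCm38, GENCODE M21) and had the largest fall. It was at 106, 91.5 and 95.1 CPM in WT_Basal and at 96.8, 104 and 93.7 CPM in KO_Basal. After OL the WT mice had 90.9, 98.1 and 70.0 CPM, and the KO mice had 58.0, 62.2 and 52.2 CPM. After RL the WT mice had 49.1, 62.0 and 50.9 CPM and the KO mice 52.4, 48.8 and 55.2 CPM. All RL mice were therefore below all Basal mice in both genotypes, and all KO_OL mice were below all WT_OL mice, a difference that did not pass the test (adjusted p = 0.0785). In WT mice the difference from Basal was -0.19 ± 0.11 after OL (adjusted p = 0.329) and -0.85 ± 0.11 after RL (0.000305), and the difference of RL from OL was -0.66 ± 0.11 (adjusted p = 0.0253). In KO mice it was -0.76 ± 0.11 after OL (0.000286) and -0.90 ± 0.11 after RL (8.72e-05), and RL differed from OL by -0.14 ± 0.11 (adjusted p = 0.9996). The KO_RL mean of *Itm2a* was 52.1 ± 3.2 CPM against 98.1 ± 5.2 in KO_Basal (SD, n = 3), so that it fell by 46.4% on the CPM + 1 scale.

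*Ly6c1* (chromosome 15, 75044018 to 75048830) differed from *Itm2a* although both mark brain endothelium. It lay between 27.0 and 46.9 CPM in the 18 libraries, with WT_RL at 31.7, 46.9 and 33.5 CPM and KO_OL at 28.0, 29.0 and 27.0 CPM. The KO_OL mice were below the KO_Basal mice (35.5, 34.4 and 38.5 CPM), with a difference of -0.36 ± 0.13 that missed the threshold (adjusted p = 0.0582). Reads of *Ly6c1* can be shared with its near-identical neighbour *Ly6c2*, so its values are uncertain in part.

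Of the 2 transporters, *Slco1a4* fell and *Slc2a1* rose. *Slco1a4* (chromosome 6, 141805440 to 141856199, minus strand) was at 79.2, 64.0 and 80.0 CPM in WT_Basal and at 63.3, 68.4 and 63.5 CPM in KO_Basal. It was at 71.4, 68.1 and 63.6 CPM in WT_OL and at 40.4, 53.7 and 48.6 CPM in KO_OL. In RL mice it was at 41.0, 47.8 and 49.6 CPM (WT) and at 44.0, 44.1 and 45.5 CPM (KO). As with *Itm2a*, every RL mouse was below every Basal mouse and KO_OL was below WT_OL without overlap. The difference from Basal was -0.13 ± 0.10 in WT_OL (adjusted p = 0.467), -0.68 ± 0.10 in WT_RL (0.000685), -0.45 ± 0.10 in KO_OL (0.00536) and -0.54 ± 0.10 in KO_RL (0.00178), and the difference of WT_RL from WT_OL was -0.55 ± 0.10 (0.0405). Related genes of the *Slco1a* family lie beside it, and reads shared with them could move its value.

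*Slc2a1* (chromosome 4, 119108711 to 119137983, plus strand) was at 95.5, 92.1 and 91.2 CPM in WT_Basal and at 94.1, 99.9 and 89.4 CPM in KO_Basal. It rose to 122, 149 and 121 CPM in WT_OL and to 112, 137 and 123 CPM in KO_OL, and stood at 115, 161 and 144 CPM in WT_RL and at 164, 152 and 167 CPM in KO_RL. Every trained mouse was above every Basal mouse. The difference from Basal was 0.48 ± 0.11 in WT_OL (adjusted p = 0.0122), 0.58 ± 0.11 in WT_RL (0.00271), 0.39 ± 0.11 in KO_OL (0.0180) and 0.76 ± 0.11 in KO_RL (0.000198). KO_RL mice were also above all KO_OL mice (0.38 ± 0.11), but with an adjusted p of 0.562. An exon of *Slc2a1* overlaps the gene *Gm12868* on the other strand, and the strand setting of the counting is not given in the sources used here, so reads of the pair cannot be told apart.

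**Figure D2:**
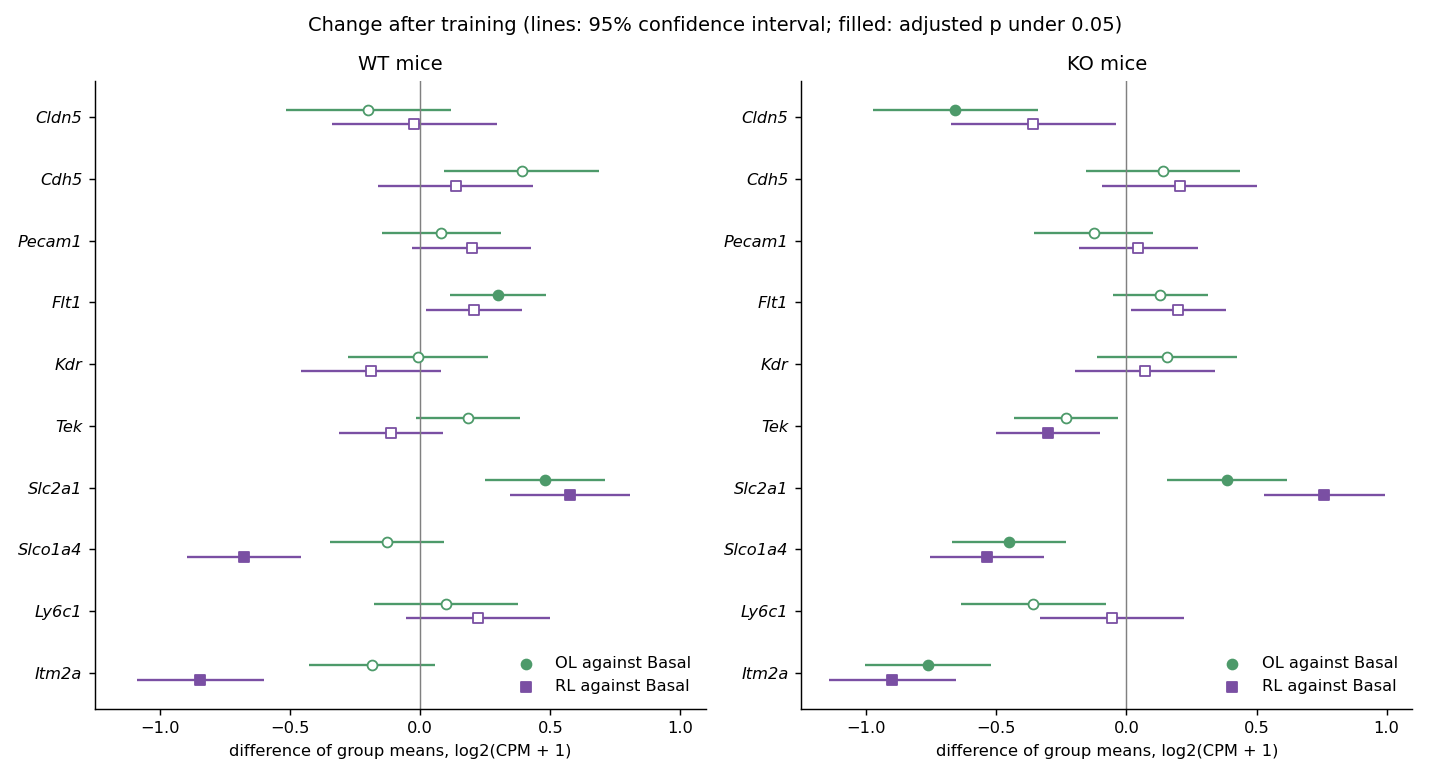
Difference from Basal in log2(CPM + 1) for each gene (horizontal axis) in WT mice (left) and KO mice (right); circles are OL, squares are RL, lines are 95% confidence intervals and filled symbols have an adjusted p under 0.05. In WT mice *Itm2a* stood at -0.19 after OL and -0.85 after RL, and in KO mice at -0.76 and -0.90.

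Of the junction genes, *Cldn5* fell in KO mice after OL. *Cldn5* (chromosome 16, 18776847 to 18778262, plus strand) was at 31.1, 37.3 and 32.0 CPM in WT_Basal, at 27.9, 32.6 and 26.5 CPM in WT_OL and at 29.0, 45.4 and 26.8 CPM in WT_RL. In KO mice it went from 27.9, 28.5 and 33.7 CPM in Basal to 19.1, 17.1 and 19.7 CPM after OL and 23.6, 21.2 and 24.8 CPM after RL. The KO_OL mice were the lowest 3 of the 18 and did not overlap any other group. The difference from Basal was -0.66 ± 0.15 in KO_OL (adjusted p = 0.00525) and -0.36 ± 0.15 in KO_RL (0.0947), and in WT mice it was -0.20 ± 0.15 after OL (0.432) and -0.02 ± 0.15 after RL (0.942). *Cdh5* (chromosome 8, 104101625 to 104144511) had 13.3 to 16.0 CPM in WT_Basal and 17.1 to 21.2 CPM in WT_OL, without overlap, and its difference of 0.39 ± 0.14 did not pass (adjusted p = 0.0903). *Pecam1* (chromosome 11, 106654217 to 106750628) passed in no comparison: its Basal libraries had 21.2 to 25.3 CPM, its OL libraries 19.3 to 27.1 CPM and its RL libraries 21.4 to 30.7 CPM, and its difference from Basal was -0.02 ± 0.08 after OL (95% confidence interval -0.18 to 0.14) and 0.12 ± 0.08 after RL (-0.04 to 0.28).

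Of the receptors, *Flt1* was higher after OL and RL, and *Tek* was lower after RL only, in the mean of both genotypes (OL against Basal -0.02 ± 0.07 for *Tek*, adjusted p = 0.826). *Flt1* (chromosome 5, 147561604 to 147726011, minus strand) went from 47.9, 45.4 and 47.8 CPM in WT_Basal to 55.8, 60.2 and 58.3 CPM in WT_OL, without overlap (0.30 ± 0.09, adjusted p = 0.0400). Its WT_RL mice had 47.5, 57.3 and 59.2 CPM and its KO mice 44.5 to 51.3 CPM in Basal, 47.0 to 55.7 CPM after OL and 52.0 to 57.0 CPM after RL, so that the KO_RL mice lay above the KO_Basal mice. *Tek* (chromosome 4, 94739289 to 94874976, plus strand) was at 16.9, 17.1 and 20.9 CPM in KO_Basal, at 14.4, 16.0 and 15.7 CPM in KO_OL and at 15.2, 13.7 and 14.9 CPM in KO_RL, where its difference from Basal was -0.30 ± 0.09 (adjusted p = 0.0303). Without KO_Basal replicate 3, the highest of its group, the *Tek* difference in KO_RL was -0.21 (adjusted p = 0.133). In WT mice *Tek* had 17.1 to 19.6 CPM in Basal, 19.8 to 21.6 CPM after OL and 15.0 to 18.4 CPM after RL, and no WT comparison of *Tek* passed. *Kdr* (chromosome 5, 75932827 to 75978458) passed in no comparison, and its differences from Basal after training lay between -0.19 and 0.16 in the 4 groups.

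By comparison, the calls were 2 of 10 members in WT_OL against WT_Basal (both higher; 9.5% of all genes), 3 of 10 in WT_RL against WT_Basal (*Slc2a1* higher, *Itm2a* and *Slco1a4* lower; 15.7%), 4 of 10 in KO_OL against KO_Basal (*Slc2a1* higher, *Itm2a*, *Cldn5* and *Slco1a4* lower; 23.5%) and 4 of 10 in KO_RL against KO_Basal (*Slc2a1* higher, *Itm2a*, *Slco1a4* and *Tek* lower; 23.6%). Between the training states, 2 of 10 members were called in WT_RL against WT_OL (*Itm2a* and *Slco1a4*, both lower), where 0.261% of all genes were called, and 0 of 10 in KO_RL against KO_OL, where 0.0196% were called; in the latter, 2 members (*Slc2a1* and *Ly6c1*, both higher) had an unadjusted p under 0.05, as had 4.81% of all genes. In the mean of both genotypes, RL was below OL for *Itm2a* alone of the 10 (-0.40 ± 0.08, adjusted p = 0.0459; 0.352% of all genes called). The calls of WT_RL against WT_OL were lost when only the libraries of that comparison were fitted, and leaving out WT_OL replicate 1 or 2 left 0 members called. The 2 calls of WT_OL against WT_Basal were lost without WT_Basal replicate 3 or WT_OL replicate 2, which left 0 members. The *Itm2a* call of RL against OL was lost in 23 of 30 alternative fits.

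Library measures also differed with training. Basal libraries held 29248557 to 31509208 reads on the listed genes, fewer than any OL or RL library (31830344 to 37915576). The output reads given in the paper overlapped between Basal, OL and RL libraries. In the paper's mapping rates, every Basal library was below every RL library, and every WT_OL library was below every KO_OL library. The part of these measures in the results was not tested. The base composition of transcripts moved with training across all genes. Among genes of at least 1 CPM, the fifth with the lowest GC content (31.0% to 43.9%) had a median difference of -0.23 in OL against Basal and -0.20 in RL against Basal, and the fifth with the highest (55.6% to 72.8%) had 0.15 and 0.13. *Slco1a4* (40.3% GC) and *Itm2a* (41.7%) are in the first of these classes and *Cldn5* (60.5%) is in the last, while *Slc2a1* has 54.0%. After a correction of each library for a smooth trend over GC content, the RL difference in the mean of both genotypes was -0.69 for *Itm2a*, -0.37 for *Slco1a4* and 0.58 for *Slc2a1*, and all 3 remained called (adjusted p = 0.000107, 0.00151 and 3.41e-05). In the same fit, *Cldn5* became called in RL against Basal (-0.32, adjusted p = 0.0112), *Tek* stayed called (-0.19, 0.0409) and *Flt1* did not (0.16, 0.0537). After OL, the corrected difference was -0.27 for *Itm2a* (adjusted p = 0.0653), -0.03 for *Slco1a4* (0.813), -0.60 for *Cldn5* (0.000302) and 0.33 for *Slc2a1* (0.00408). In KO_OL against KO_Basal, *Itm2a* (-0.55, adjusted p = 0.0133) and *Cldn5* (-0.80, 0.000895) stayed called, and *Slco1a4* (-0.18, 0.238) and *Slc2a1* (0.29, 0.0557) did not. In KO_RL against KO_Basal, *Slco1a4* was at -0.31 (adjusted p = 0.0501) and *Cldn5* became called (-0.49, 0.0137). In WT_OL against WT_Basal neither *Slc2a1* (0.38, adjusted p = 0.0554) nor *Flt1* (0.27, 0.101) was called.

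Levels relative to *Pecam1*, which passed in no comparison, were taken within each library. The ratio of *Itm2a* to *Pecam1* was 3.68 to 4.90 in the 6 Basal libraries, 2.39 to 3.75 after OL and 1.70 to 2.31 after RL, so the RL and Basal libraries did not overlap. The ratio of *Slco1a4* was 2.5 to 3.53 in Basal and 1.56 to 2.06 in RL, without overlap, and that of *Slc2a1* was 3.53 to 4.71 in Basal and 4.81 to 7.10 in RL, without overlap. *Tek* relative to *Pecam1* had means of 0.77 in Basal, 0.77 in OL and 0.61 in RL, where the RL libraries (0.56 to 0.65) were below all Basal libraries (0.72 to 0.82). *Cldn5* had ratios of 1.21 to 1.5 in Basal, 0.76 to 1.2 in OL and 0.88 to 1.48 in RL. *Itm2a*, *Slco1a4*, *Slc2a1* and *Tek* therefore did not keep a fixed proportion to *Pecam1* between Basal and RL, while the *Cldn5* ratios of Basal and RL overlapped. The same 18 libraries supply both members of each ratio, and the ratios were given no test.

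**Figure D3:**
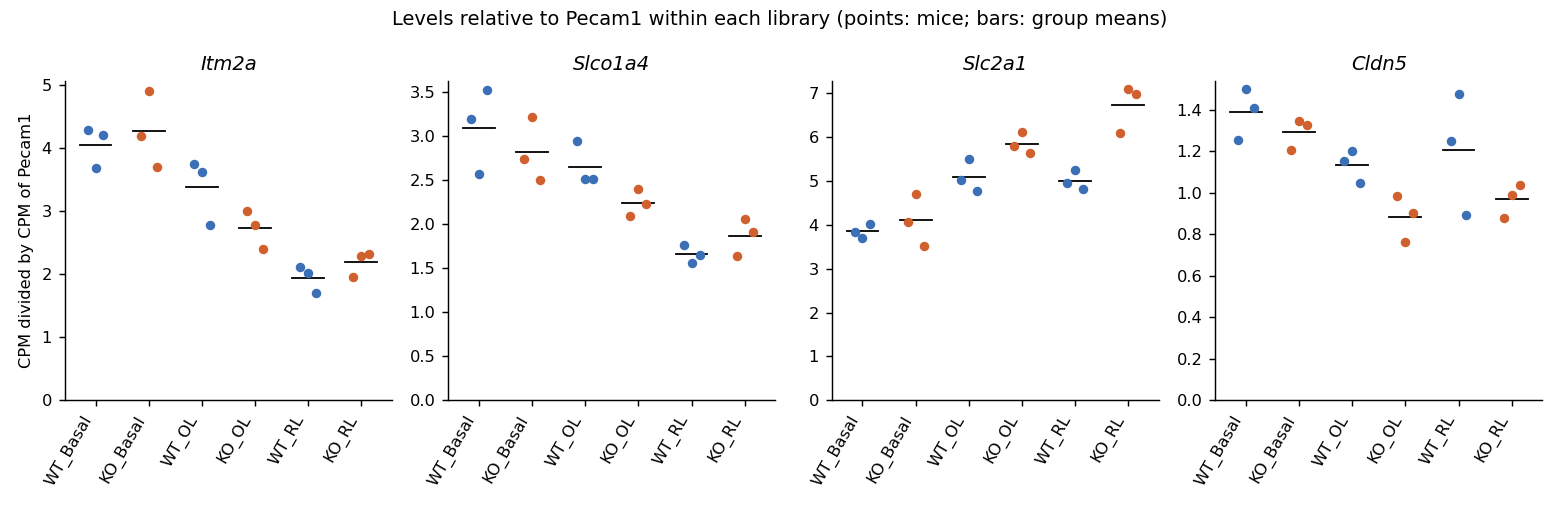
CPM of *Itm2a*, *Slco1a4*, *Slc2a1* and *Cldn5* divided by the CPM of *Pecam1* in the same library (vertical axes, from 0), by group; points are mice and bars are means of 3. The mean ratio of *Itm2a* was 4.15 in Basal, 3.05 in OL and 2.06 in RL, and that of *Slc2a1* was 3.98, 5.47 and 5.87.

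Across the 18 libraries, *Itm2a* and *Slco1a4* were the most alike pair of members, with a Pearson r of 0.92, and *Itm2a* and *Slc2a1* the most opposite, with -0.68. These points share group means, library depth and dissection, and the values are a description. With the mean of each group removed, the most alike pairs were *Pecam1* and *Tek* (r = 0.85), *Cdh5* and *Tek* (0.84), *Cdh5* and *Pecam1* (0.84) and *Cldn5* and *Ly6c1* (0.83), so that mice of one group that had more of one of these genes had more of the other. Of all non-member genes, those nearest to the mean standardized level of the 10 members were *Uaca* (r = 0.89), *Kank2* (0.88), *Mgp* (0.87), *Dll4* (0.87), *Thsd1* (0.86), *Myl9* (0.86), *Tie1* (0.86), *F13a1* (0.86), *Fcgrt* (0.86) and *Id1* (0.85) over 18 libraries. With group means removed they were *Tie1* (0.93), *Id1* (0.92), *Tgm2* (0.89), *Aldh4a1* (0.89), *Mxra7* (0.88), *Fcgrt* (0.88), *Hr* (0.88), *1110007C09Rik* (0.87), *Tns2* (0.87) and *Tspan15* (0.87). *Tie1*, an endothelial receptor and partner of TIE2, *Id1* and *Fcgrt* were in both lists.

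Between genotypes, no member was called in any training state. In KO_OL against WT_OL all 10 differences were below 0, with a median of -0.33 against 0.00095 over all genes. Of the 10, 6 had an unadjusted p under 0.05, as had 18% of all genes, and 0 of 10 passed after adjustment, where 0.0652% of all genes did. The largest were *Cldn5* (-0.61 ± 0.15, adjusted p = 0.122), *Itm2a* (-0.57 ± 0.11, 0.0785), *Slco1a4* (-0.51 ± 0.10, 0.0785), *Tek* (-0.42 ± 0.09, 0.106) and *Cdh5* (-0.40 ± 0.14, 0.195). A comparison of 3 mice with 3 cannot give an exact permutation p under 0.1. Without WT_OL replicate 3, a library that stood apart from its group, 4 members passed, among them *Itm2a* (-0.71, adjusted p = 0.00788) and *Cldn5* (-0.67, 0.0178). The share of all genes called in that fit is not given here, so this count does not set the members apart from other genes.

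Untrained mice did not show this picture: in KO_Basal against WT_Basal 5 differences were above 0 and 5 below, 1 member had an unadjusted p under 0.05 (4% of all genes did), and 0 of 10 passed after adjustment (0.0196% of all genes). That member was *Kdr*, at 20.7, 18.8 and 19.1 CPM in WT_Basal and at 14.1, 13.8 and 15.3 CPM in KO_Basal. The groups did not overlap, but the difference of -0.41 ± 0.13 had an adjusted p of 0.994. The summed level of the 15 choroid plexus genes did not overlap between these groups either (908 to 4545 CPM in WT_Basal, 60.8 to 705 CPM in KO_Basal). Its part in the *Kdr* difference was not tested. In KO_RL against WT_RL, 8 of 10 differences were below 0 and 1 member, *Cldn5*, had an unadjusted p under 0.05 (4.93% of all genes did). Its difference was -0.49 ± 0.15 with an adjusted p of 0.675, and 0 of 10 members and 0% of all genes passed. In the mean of the 3 training states, 9 of 10 members were lower in KO mice, 7 with an unadjusted p under 0.05 (8.36% of all genes), and 0 passed after adjustment (0.0326% of all genes). The largest was *Cldn5* (-0.42 ± 0.09, adjusted p = 0.144), which passed after the GC correction (-0.43, adjusted p = 0.0419) and without WT_RL replicate 1 (-0.44, adjusted p = 0.0412). *Kdr* followed (-0.27 ± 0.07, adjusted p = 0.316). *Flt1* (-0.04) and *Ly6c1* (-0.05) hardly differed between genotypes in this mean, with 95% confidence intervals of -0.14 to 0.07 and -0.21 to 0.11. For *Ly6c1* the mean combined opposite signs, with 0.19 in Basal, -0.26 in OL and -0.08 in RL, none of which passed the test.

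**Figure D4:**
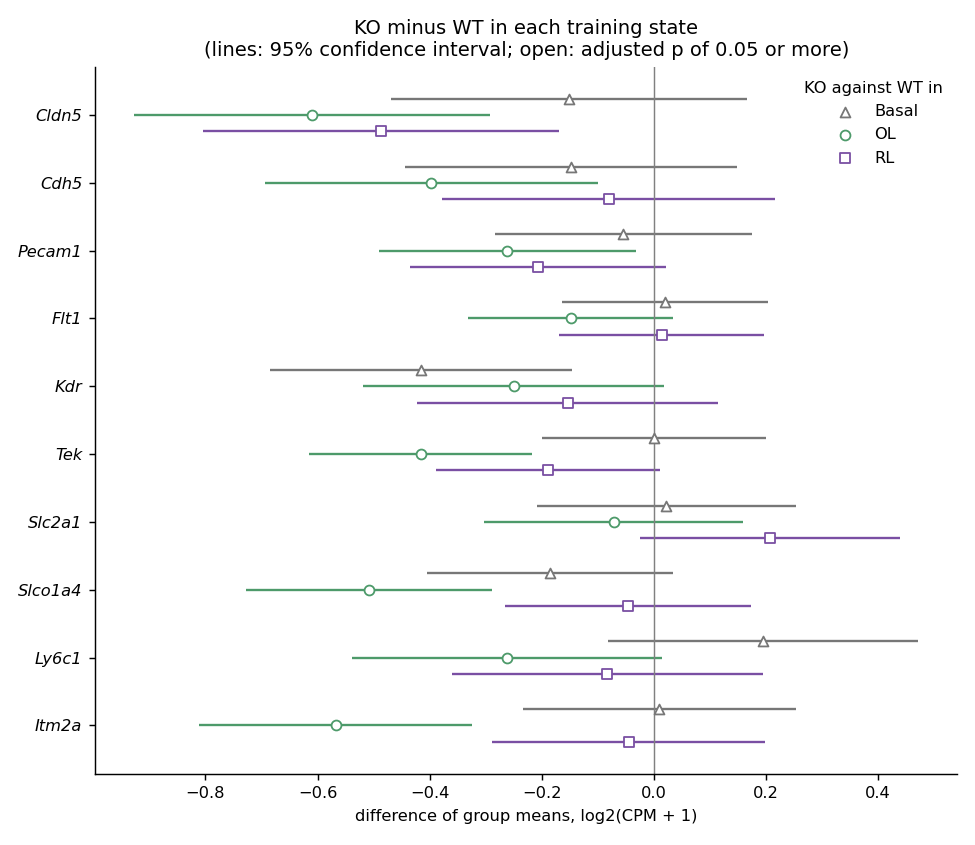
Difference of KO from WT in log2(CPM + 1) for each gene (horizontal axis) in Basal, OL and RL mice. Lines are 95% confidence intervals, and an open symbol marks an adjusted p of 0.05 or more. In OL mice all 10 points lie below 0, from -0.07 for *Slc2a1* to -0.61 for *Cldn5*, and every symbol is open.

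The change from Basal to OL was compared between the genotypes directly. It was lower in KO than in WT mice for 9 of 10 members, 5 of them with an unadjusted p under 0.05 (12.4% of all genes), and 0 passed after adjustment (0% of all genes). *Itm2a* had the largest such difference (-0.58 ± 0.16, unadjusted p = 0.00256, adjusted p = 0.388), followed by *Cldn5* (-0.46 ± 0.21), *Ly6c1* (-0.46 ± 0.19), *Tek* (-0.42 ± 0.13) and *Slco1a4* (-0.32 ± 0.15). Without WT_OL replicate 3, the mouse with the lowest *Itm2a* of its group, the value for *Itm2a* was -0.72 (adjusted p = 0.0352). From OL to RL the difference was above 0 for all 10 members. *Itm2a* (0.52 ± 0.16, adjusted p = 0.504) and *Slco1a4* (0.46 ± 0.15, 0.541) were the 2 with an unadjusted p under 0.05 (7.98% of all genes), and again 0 passed (0% of all genes). From Basal to RL, 0 of 10 had an unadjusted p under 0.05 (4.99% of all genes) and 0 passed (0%). These 3 comparisons and those between genotypes share their libraries, so the low KO_OL values enter several of them.

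Other genes of the same systems moved in both directions after RL, in the mean of both genotypes. Among 19 further barrier transporters, 3 rose and 5 fell. *Mfsd2a*, the carrier of the omega-3 fatty acid DHA in its lysolipid form, went from 20.3 ± 1.88 CPM in WT_Basal to 40.6 ± 6.11 CPM in WT_RL and from 22.8 ± 1.37 to 39.9 ± 0.396 CPM in KO mice (SD, n = 3), a difference of 0.87 ± 0.10 that stayed called after the GC correction (0.78). *Abcc4*, an efflux pump (0.58), and *Slc7a5*, which carries large neutral amino acids (0.37), also rose. *Tfrc*, the transferrin receptor, fell from 208 to 129 CPM in WT mice (difference -0.64, and -0.39 after the GC correction). *Slc39a8*, a metal carrier (-0.50), *Slc6a6*, the taurine carrier (-0.24), and *Slc16a1*, the lactate carrier MCT1 (-0.22), fell as well, but *Slc39a8* and *Slc16a1* were no longer called after the GC correction, which left 3 higher and 2 lower.

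Of 17 further junction and adhesion genes, 2 rose (*Lsr* 0.33 and *Cd93* 0.31) and 1 fell (*Mcam* -0.49). *Lsr* encodes the receptor of tricellular junctions and *Mcam* the adhesion molecule CD146. *Lsr* was no longer called after the GC correction (0.21), but over the 17 genes the corrected split was 4 higher and 1 lower. Of 20 further genes of VEGF, angiopoietin and Notch signalling, 4 rose and 1 fell. *Notch4*, the endothelial Notch receptor, went from 6.36 to 10.9 CPM in WT mice and from 6.58 to 12.5 CPM in KO mice (0.76), followed by *Flt4* (VEGFR3, 0.35), *Notch1* (0.34) and *Ephb4* (0.29), and *Angpt1*, a ligand of TIE2, fell (-0.48). After the GC correction *Notch4* (0.62) and *Notch1* (0.22) stayed called, and *Flt4* (0.24), *Ephb4* (0.16) and *Angpt1* (-0.21) did not. Over the 20 genes the corrected split was 3 higher and 1 lower, which includes genes not called before the correction. Of 31 genes of Wnt/beta-catenin signalling and barrier transcription factors, 7 rose, among them *Lrp5* (0.64), *Sox18* (0.50), *Ppard* (0.37) and *Adgra2* (0.28), and 5 fell, among them *Tspan12* (-0.54), *Ndp* (-0.50), *Erg* (-0.38) and *Lmo2* (-0.37). After the GC correction the split was 3 higher and 5 lower, and *Adgra2* (0.15) was no longer called. These shares of 3 of 17, 8 of 19, 5 of 20 and 12 of 31 stand beside the 35.4% of all genes called.

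Of 29 further endothelial markers, 10 rose and 8 fell (35.4% of all genes called), and 7 and 6 after the GC correction. *Ahnak* (0.75), *Pglyrp1* (0.74), *Ly6e* (0.42) and *Ramp2* (0.35) rose, and *Slc40a1*, which encodes the iron exporter ferroportin (-0.54), *Clec14a* (-0.49), *Cav1* (-0.38) and *Klf6* (-0.32) fell, of which *Klf6* was no longer called after the GC correction (-0.17). Of 16 genes known to respond to flow or activity in endothelium, 8 rose and 0 fell, beside the same 35.4%, with a median difference of 0.29 against 0.0012 over all genes. They included the cell cycle inhibitor *Cdkn1a* (1.03), *Tsc22d3*, a target of glucocorticoid signalling (0.76), the transcription factor *Klf4* (0.49) and the plasminogen activator *Plat* (0.26), genes that other cells of the hippocampus also use. After the GC correction 5 of the 16 were higher and 2 lower. After OL, 7 of these 16 rose and 1 (*Edn1*, -0.39) fell, where 28.6% of all genes were called, with *Klf2* at 0.80. *Clec14a* was the only gene of the endothelial lists called between genotypes in the mean of the training states (-0.49, adjusted p = 0.0146), with means of 8.79, 6.31 and 6.30 CPM in WT and 6.24, 4.24 and 3.93 CPM in KO mice in Basal, OL and RL.

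**Figure D5:**
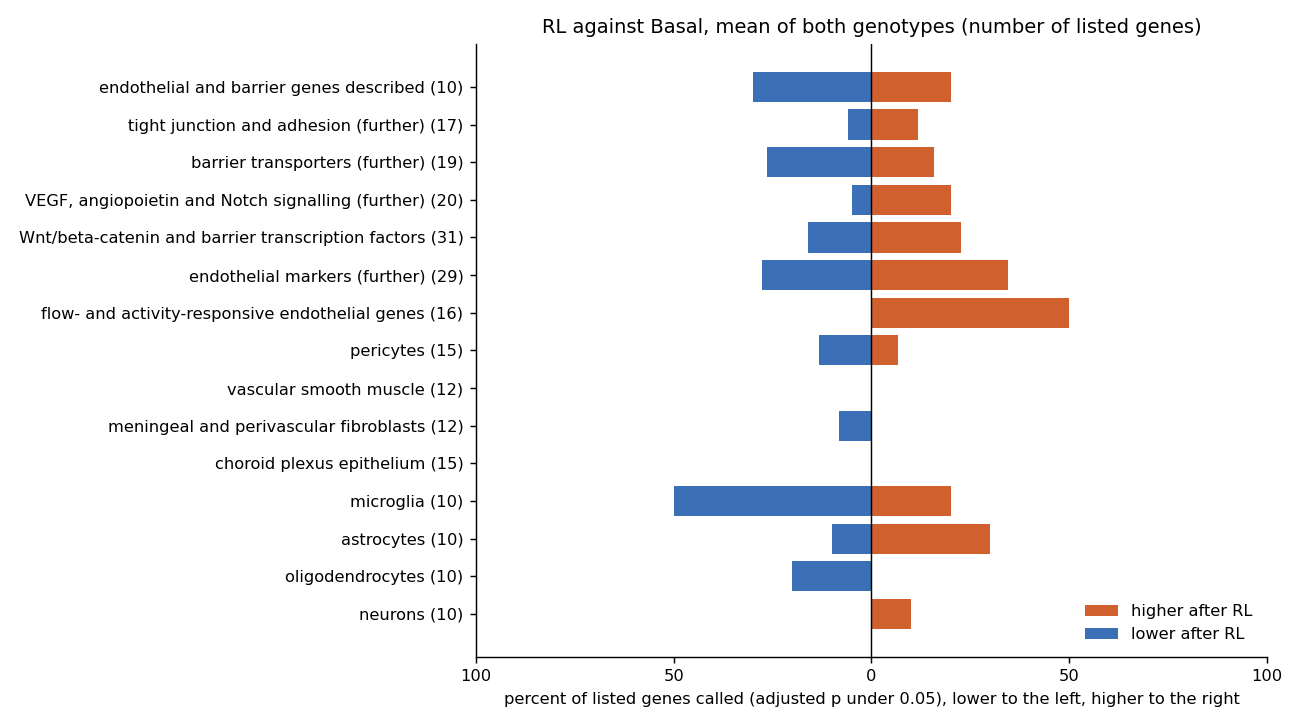
Percent of the genes in each list called higher (right) or lower (left) in RL against Basal, mean of both genotypes (adjusted p under 0.05). Each label gives the number of genes listed. Of the 10 endothelial and barrier genes 2 were higher and 3 lower, and of the 16 flow- and activity-responsive genes 8 were higher and 0 lower.

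Markers of neighbouring cells moved together with some of these results, and their part in them was not tested. In OL mice the summed level of 15 pericyte genes was 247 to 274 CPM in WT and 189 to 215 CPM in KO, that of 12 vascular smooth muscle genes 154 to 185 and 103 to 104 CPM, and that of 12 fibroblast genes of meninges and perivascular space 381 to 430 and 253 to 322 CPM, none with overlap. The 29 further endothelial markers summed to 887 to 963 CPM in WT_OL and 830 to 849 CPM in KO_OL, and the 17 further junction genes to 581 to 592 and 480 to 524 CPM, again without overlap. Oligodendrocyte and astrocyte markers were lower in KO_OL too: 10 oligodendrocyte genes summed to 7846 to 11375 CPM in WT_OL and 5225 to 6957 CPM in KO_OL, and 10 astrocyte genes to 6751 to 8315 and 6171 to 6374 CPM, both without overlap. The 20 further genes of VEGF, angiopoietin and Notch signalling overlapped (468 to 549 CPM in WT_OL, 511 to 560 CPM in KO_OL). No gene of these 8 lists was called between KO_OL and WT_OL, where only 0.0652% of all genes were called. Other sums overlapped between WT_OL and KO_OL: microglia (526 to 694 and 533 to 568 CPM) and further barrier transporters (1385 to 1457 and 1331 to 1415 CPM). So did Wnt and barrier transcription factor genes (1127 to 1291 and 1164 to 1212 CPM) and flow- and activity-responsive genes (449 to 527 and 446 to 552 CPM). Choroid plexus genes overlapped as well (1963 to 3424 and 2514 to 4840 CPM), with the higher mean in KO_OL. The 15 choroid plexus genes summed to 60.8 to 705 CPM in KO_Basal and 2514 to 4840 CPM in KO_OL, and 14 of 15 were called higher there, where 23.5% of all genes were called. Beside the rise of *Slc2a1*, the summed level of 10 astrocyte markers was 5390 to 5908 CPM in Basal, 6171 to 8315 CPM in OL and 6494 to 7955 CPM in RL, 3 of 10 higher and 1 lower in RL. In the same RL comparison, where 35.4% of all genes were called, 1 of 15 pericyte genes was higher and 2 lower, 0 of 12 smooth muscle genes were called, 1 of 12 fibroblast genes was lower, 0 of 15 choroid plexus genes were called, 2 of 10 microglial genes were higher and 5 lower, 2 of 10 oligodendrocyte genes were lower and 1 of 10 neuronal genes was higher. Of the red cell genes sought, *Alas2* alone was listed, and it was not called.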

How the data were processed

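Hippocampal poly-A RNA of 18 mice was sequenced, 1 library per mouse, and replicates are separate mice. Per the labels and the study's methods, the authors aligned the reads with STAR 2.5.1 to mm10, counted them per gene, normalized the counts with edgeR 3.12.1 (R 3.3.0, TMM) and deposited log2 values of CPM for 15329 genes. The deposited values behave as log2(CPM + 1): the values checked for whole reads (204095 in all) gave whole numbers within 0.05 for 100.0% of them. The strand setting of the counting is not given in the sources used here. The recovered reads on the listed genes were 29248557 to 37915576 per library, and 1 read was worth 0.0274 to 0.0333 CPM.

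The deposited log2 values were fitted with limma 3.58.1 in R 4.3.3 (1 mean per group, all 18 libraries, eBayes with trend, 12 residual degrees of freedom), in 16 comparisons, two-sided, with Benjamini-Hochberg adjustment over all 15329 genes, each above 0 in at least 3 libraries. The step was tested on simulated data. Tables and plots were made with Python 3.11.15, numpy 2.4.6, pandas 2.3.3, scipy 1.17.1 and matplotlib 3.10.9. Groups came from the sample labels. The members and the gene lists were chosen with earlier results of these data known. Named genes are the 10 members, at most 4 called genes of each list and direction with the smallest adjusted p, and the 10 genes outside the members most alike to the mean of their standardized levels. Positions, lengths and GC content came from GENCODE M21 (GRCm38), with GC content matched for 99.3% of genes, and promoters from RefSeq (GRCm38.p6), whose table holds 8 of the 10 members (not *Cdh5* and *Pecam1*).

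Alternatives were other scales, filters and normalizations, voom on the recovered reads, library weights (this fit did not fully converge), a replicate block, a GC correction, a fold change over 1.5 with an unadjusted p under 0.05, and leaving out each library.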

Additional observations from a re-analysis of the deposited data

How the results depend on the processing

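The alternatives with an adjusted p kept the call of *Itm2a* in WT_RL, KO_OL and KO_RL against Basal, of *Slc2a1* in WT_RL and KO_RL, of *Slco1a4* in WT_RL and of *Cldn5* in KO_OL (30 of 30 fits each), while under a fold change over 1.5 with an unadjusted p under 0.05 *Slc2a1* in WT_RL was not called, which left 2 members there. For the other counts of called members the causes of the changes were not tested. With library weights the counts were 8 in KO_OL against WT_OL, 4 in WT_OL against WT_Basal, 4 in WT_RL against WT_OL, 3 in KO_RL against KO_OL, 7 in KO_RL against KO_Basal, 5 in KO against WT (mean), 8 in OL against Basal (mean), 6 in RL against OL (mean), and 5 and 2 for the genotype difference in OL against Basal and RL against OL, and *Flt1* in KO against WT (mean) turned to 0.0050. In each of these comparisons, library weights also gave the largest count of called genes over all genes among the alternatives. It was 6887 genes in KO_OL against WT_OL, where the main fit gave 10, and 7038 in WT_OL against WT_Basal, where it gave 1457. The member counts were not tested against these. With the GC correction the member counts were 0 in WT_OL, 2 in KO_OL and 1 in KO against WT. They were 3 in OL against Basal and 0 in RL against OL. With a fold change over 1.5 and an unadjusted p under 0.05 they were 1 in KO_OL against WT_OL, 0 in WT_OL, 1 in WT_RL against WT_OL, 2 in KO_OL, 2 in KO_RL, 0 in OL against Basal, 0 in RL against OL and 3 in RL against Basal. WT_OL gave 1 with library sums, 1 without a trend and 0 with only its own libraries, WT_RL against WT_OL gave 1 without a trend, 1 with CPM floored at 1, 0 without moderation and 0 with only its own libraries, and RL against OL gave 0 in these fits and with quantile normalization. Replicate numbers did not pair the mice (mean correlations of same-numbered deviations -0.07, 0.03 and 0.04, and 7 of 18 libraries were closest to their own number), and with the replicate block 1 member passed in WT_RL against WT_OL and 5 in KO_OL against KO_Basal.

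Leaving out 1 library gave 0 to 4 called members in KO_OL against WT_OL, 0 to 2 in WT_OL, in WT_RL against WT_OL and in RL against OL, 0 to 1 in KO against WT and in the genotype difference in OL against Basal, 3 to 5 in KO_OL and in KO_RL against KO_Basal, 3 to 4 in WT_RL, 5 to 6 in OL against Basal and 4 to 6 in RL against Basal. *Ly6c1* in KO against WT ranged from -0.085 to 0.0070 and was above 0 without WT_OL replicate 2 (0.00092) or WT_RL replicate 2 (0.0070). Over all genes, the count called ranged across alternatives from 74 to 7038 around 1457 in WT_OL, from 1137 to 3353 around 2407 in WT_RL, from 2228 to 6446 around 3600 in KO_OL, from 2091 to 7536 around 3612 in KO_RL, from 0 to 6887 around 10 in KO_OL against WT_OL, from 0 to 2467 around 40 in WT_RL against WT_OL, from 0 to 12 around 3 in KO_Basal against WT_Basal, from 0 to 59 around 0 in KO_RL against WT_RL, from 0 to 368 around 3 in KO_RL against KO_OL, from 3 to 561 around 5 in KO against WT, from 2506 to 7942 around 4388 in OL against Basal and from 15 to 2014 around 54 in RL against OL. Each member had at least 361 reads in every library, and 3 mice per group limit the precision.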

Other observations

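Outside the vessel genes, markers of glial cells moved in RL against Basal in the mean of both genotypes. Among microglial genes, *P2ry12*, the purinergic receptor of resting microglia, fell by 0.86 on the log2 scale (-0.86), and *Aif1* (-0.50) and *Ctss* (-0.33) fell, while *Tmem119* (0.36) and *Csf1r* (0.25) rose. These 5 were still called after the GC correction. Of 10 astrocyte genes, *Slc1a2*, the glutamate transporter GLT-1 (0.56), *Gjb6*, which encodes connexin 30 (0.55), and *Fgfr3* (0.26) rose, and *Aqp4*, the water channel of the endfeet around vessels (-0.29), fell. After the GC correction *Fgfr3* and *Aqp4* were no longer called. Among oligodendrocyte genes, *Opalin* fell (-0.81) and was still called after the GC correction.

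The gene most alike to *Slc2a1* over the 18 libraries was *Cdkn1a* (Pearson r = 0.95), followed by *Sdc4* (0.92) and *Tsc22d3* (0.92). *Itm2a* was most alike to *Rbm7* (0.96), and among the genes most alike to *Slco1a4* were *Itm2a* (0.92) and the oligodendrocyte gene *Opalin* (0.91). These values describe libraries that share group means, and *Slc2a1*, *Itm2a* and *Slco1a4* were picked for them after their values were seen.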
